A study of Mus musculus with 12 samples.

Results

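The Hox genes encode homeodomain transcription factors. In mammals they lie in 4 clusters, Hoxa, Hoxb, Hoxc and Hoxd, and the number in a gene's name gives its paralog group, from 1 to 13. Members of a group share descent and position in their clusters. Groups of low number are active towards the head and groups of high number towards the tail, in the order in which the genes stand on the chromosome, and adult cells often keep the set of Hox genes of the body region they came from. In the lower urogenital tract, Hoxa10, Hoxa13, Hoxb13 and Hoxd13 are known for roles in the development of the prostate and its neighbouring glands. The members were all gene symbols in the files made of Hox, a cluster letter and a number. They were 39 of the 43243 gene names: 11 of Hoxa, 10 of Hoxb, 9 of Hoxc and 9 of Hoxd. In GRCm38, Hoxa lies on chromosome 6 at 52155590 to 52260880, Hoxb on chromosome 11 at 96194316 to 96368256, Hoxc on chromosome 15 at 102921103 to 103036852 and Hoxd on chromosome 2 at 74668310 to 74765142.

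The RNA came from mouse prostate organoids, which are prostate cells cultured in Matrigel with EGF. There were 6 libraries labelled SPOPmut and 6 labelled SPOPwt. Both groups carry the numbers S0 to S5, and libraries of equal number were taken as a pair. SPOP is the substrate receptor of a ubiquitin ligase, and the mutant form is F133V, placed in the Rosa26 locus. The protocols describe Line_A, with CreERT2 brought in by virus and puromycin selection, Line_B, with a TMPRSS2-CreERT2 transgene, and organoids without induction from PbCre;R26F133V mice and PbCre-negative controls. The recombinase CreERT2 was activated with 4-Hydroxytamoxifen, after which cells were sorted for GFP or, as controls, sham sorted. SPOP status and the kind of sort go together in that design, so their effects cannot be told apart. The extraction protocol counts 5 pairs of model A beside 1 of model B, without saying which pair that is. The sources used here give neither the age and strain of the mice nor whether control cells carried the CreERT2 construct. Nothing in the labels says that the pairs came from separate animals or cultures, so a p-value here speaks to the spread among these libraries alone, and that may be technical.

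Pair S5 differed in cell type from pairs S0 to S4, and each Hox comparison between them was read beside that. The summed level of 7 epithelial markers (Epcam, Krt5, Krt14, Krt8, Krt18, Trp63 and Cdh1) was 2930 to 3924 RPKM (reads per kilobase of transcript, scaled to the depth of the library) in the 2 libraries of S5 and 9.46 to 113 RPKM in the 10 others (S0 to S4). All 7 were above every library of S0 to S4. The 6 mesenchymal markers (Vim, Col1a1, Col1a2, Pdgfra, Pdgfrb and Cdh2) summed to 0.28 to 0.39 RPKM in S5 and to 764 to 1291 RPKM in S0 to S4. Of the prostate epithelial genes, Pbsn was listed at 0 in all 12 libraries and Sbp stayed under 0.1 RPKM in each. Wt1, a mesothelial marker, was listed at 0 in S5 and reached 0.0049 RPKM at most elsewhere, although Msln, another one, reached 308 to 520 RPKM in S5 and 31.8 to 194 RPKM elsewhere. The part of cell type in the Hox differences described here was not tested, and S5 is 1 pair, so S5 against S0 to S4 is given as values without a test. In bulk RNA, fewer cells of a type and less RNA per cell cannot be told apart.

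Genes of Hoxa and Hoxb, and Hoxd8 of Hoxd, were on in all 6 pairs, S5 also had the posterior Hoxd genes Hoxd10, Hoxd11 and Hoxd13, and Hoxc was silent or nearly so in every library. A gene was called on in a pair when both libraries reached 1 RPKM, which for a transcript of 2 kb was 56.5 to 82.0 reads. In S5, 23 of 39 Hox genes were on (59.0%), where 30.4% of all gene names were. In S0 to S4, 16 were on in every pair (41.0%), where 28% of all gene names were. These 16 were on in S5 as well, where 26% of all gene names were on in all 6 pairs. They were Hoxa5, Hoxa6, Hoxa7, Hoxa9, Hoxa10, Hoxa11, Hoxa13, Hoxb3 to Hoxb9, Hoxb13 and Hoxd8. A further 15 stayed under 1 RPKM in all 12 libraries (38.5%, against 62.9% of all gene names), including all 9 Hoxc genes, Hoxb1, Hoxb2, Hoxd1 and Hoxd12. The same held for Hoxa4, at 0.46 to 0.98 RPKM, and for Hoxd3, at 0.19 to 0.55 RPKM.

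**Figure D1:**
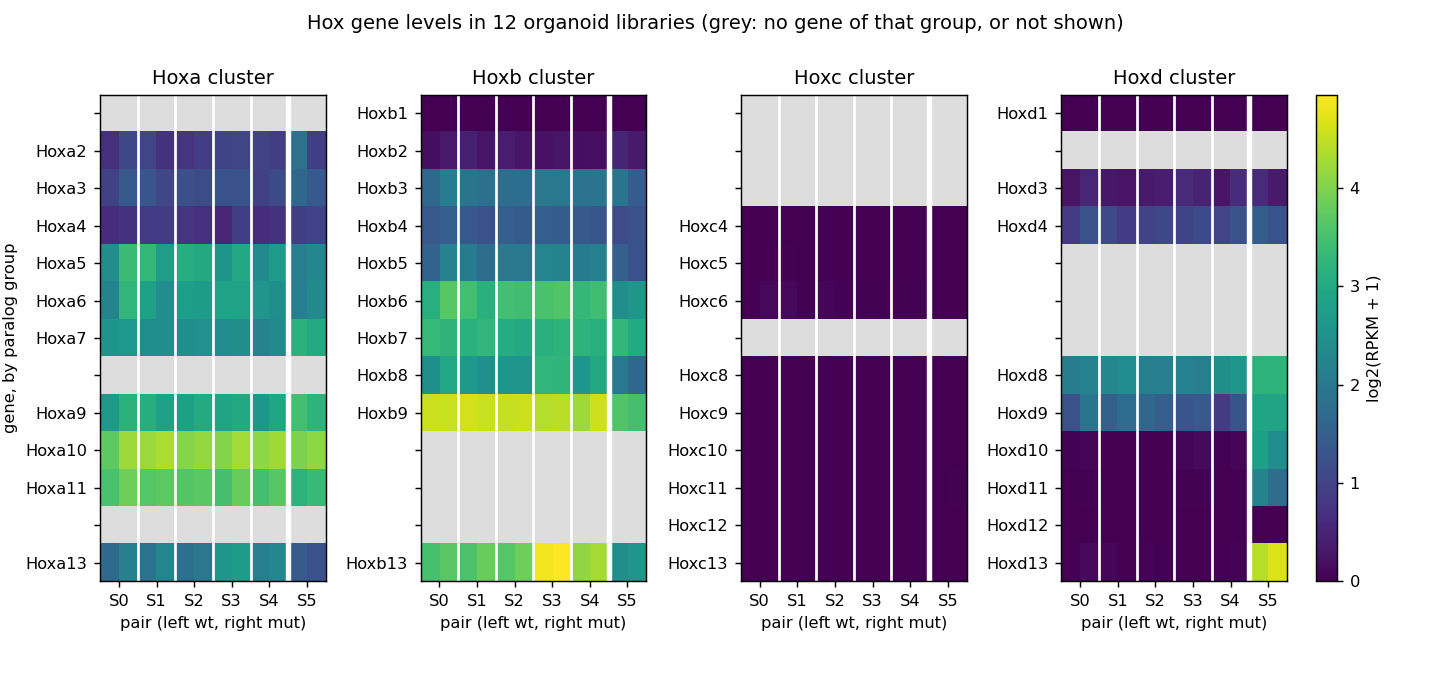
Level of the Hox genes shown, as log2(RPKM + 1) by colour, in the 12 libraries (columns, by pair, with SPOPwt left and SPOPmut right), with 1 panel per cluster and rows by paralog group. Hoxc stays dark in all libraries, Hoxa and Hoxb are bright from the middle groups on, and Hoxd10, Hoxd11 and Hoxd13 are bright in S5 alone.

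Summed over its genes, the Hox family as a whole was at a similar level in S5 (138 to 142 RPKM) and in S0 to S4 (112 to 159 RPKM), but the clusters shared it differently. Hoxd summed to 46.9 to 48.2 RPKM in S5 and to 5.63 to 8.50 RPKM in S0 to S4. That was 33.0 to 34.8% of the Hox total in S5 and 4.20 to 6.09% in the others. Hoxb went the other way, with 34.5 to 38.1 RPKM in S5 and between 60.0 and 86.8 RPKM in S0 to S4. Hoxa overlapped, at 55.8 to 57.1 RPKM in S5 and 46.1 to 69.6 RPKM in S0 to S4. Hoxc summed to at most 0.090 RPKM in any library.

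**Figure D2:**
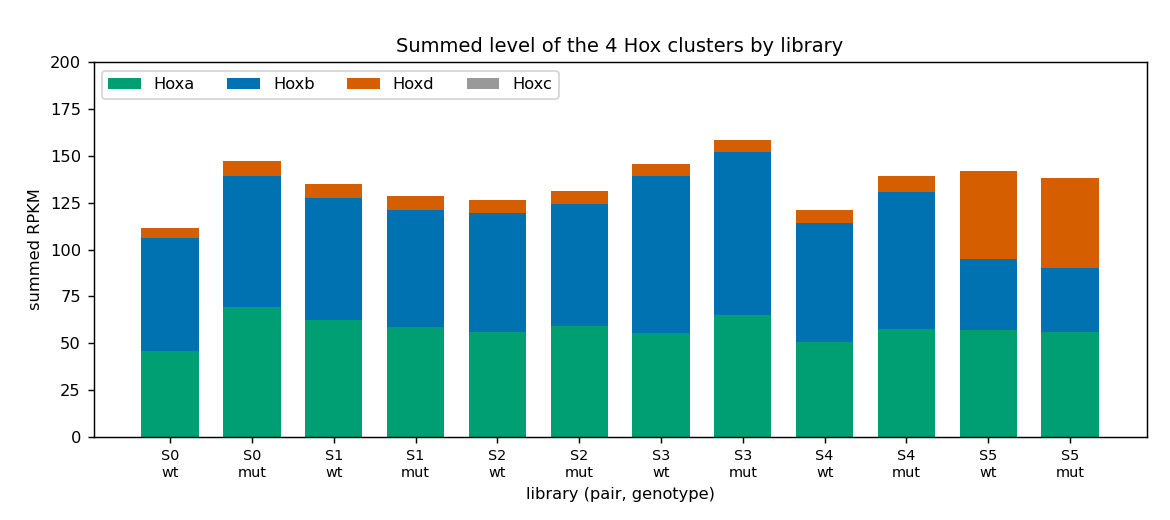
Summed RPKM of the 4 Hox clusters, stacked, for each of the 12 libraries. Total height is similar throughout, and the Hoxd segment is 46.9 to 48.2 RPKM in S5 and no more than 8.50 RPKM elsewhere.

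The difference between S5 and the other pairs was sharpest at the posterior end of Hoxd. Hoxd13, Hoxd11 and Hoxd10 were on in S5 and under 1 RPKM in all 10 other libraries. They were among 4 of 39 Hox genes with this pattern (10.3%), against 1.74% of all gene names. The reverse pattern, on in every pair of S0 to S4 and under 1 RPKM in both S5 libraries, was met by 0 of 39 Hox genes and by 1.58% of all gene names.

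Hoxd13, which patterns the limb ends, genital tubercle and prostate ducts, stood at 20.4 RPKM in the S5 SPOPwt library and 25.0 RPKM in the S5 SPOPmut library. In S0 to S4 it stood at 0 to 0.084 RPKM, with a median of 0.011 RPKM. The lower S5 value was 243 times the highest value elsewhere. With the exon lengths of the reference annotation, these levels were about 2077 and 2097 reads in S5, and 0 to 7.00 reads in the other libraries. Hoxd13 was the most abundant Hox gene of S5 in both libraries, ahead of Hoxa10. It lies on chromosome 2 at 74668310 to 74671599 and shares no exon base with another annotated gene.

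Hoxd10, a group 10 gene of limb and hindlimb nerve patterning, was at 5.94 RPKM (SPOPwt) and 4.40 RPKM (SPOPmut) in S5. Elsewhere it did not exceed 0.085 RPKM, so the lower S5 value was 51.9 times the highest of the others. Hoxd11, which acts with Hoxa11 in forearm and kidney development, was at 3.62 and 2.42 RPKM in S5 and never above 0.019 RPKM elsewhere, about 3 reads. Hoxd10, Hoxd11 and Hoxd13 were named for being on in S5 alone, so the lack of overlap between the groups of libraries follows from that choice.

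Between them stood Hoxd12, which did not follow its neighbours. It was at 0.0096 RPKM in the S5 SPOPwt library and 0.012 RPKM in the S5 SPOPmut library, about 1.00 read each, and listed at 0 in the other 10. Its 3′ neighbour Hoxd11 starts 1.85 kb beyond its end, and Hoxd13 ends 3.41 kb before its start. Evx2, a homeobox gene that flanks Hoxd13 on the outer side, was at 0.76 (SPOPwt) and 0.52 RPKM (SPOPmut) in S5 and listed at 0 in the 10 others. Of the 17 genes flanking the 4 clusters, 6 had both S5 libraries above all others and 2 below, where 14.3% and 11.9% of all gene names did. Of all gene names, 30% were listed at 0 in every library and could do neither. On the Hoxd side, Atf2, a transcription factor, was at 7.81 to 8.24 RPKM in S5 and 5.00 to 7.05 RPKM elsewhere. Jazf1, on the Hoxa side, was at 0.023 to 0.061 RPKM in S5 and 0.74 to 2.15 RPKM elsewhere. Mtx2, a mitochondrial import gene beyond Hoxd1, overlapped, at 10.3 to 10.7 RPKM in S5 and 7.87 to 12.1 RPKM in S0 to S4.

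Hoxd9 and Hoxd8, the next genes inwards, were above background in every library but higher in S5. Hoxd9 was at 6.37 (SPOPwt) and 6.47 RPKM (SPOPmut) in S5 and at 0.85 to 2.82 RPKM in S0 to S4, a ratio of means of 3.62. Hoxd8 was at 8.25 and 8.29 RPKM in S5 and at 3.25 to 5.09 RPKM in S0 to S4, a ratio of 2.15. The step thus lay between Hoxd9 and Hoxd10, whose gene bodies are 2.62 kb apart, and the stretch from the start of Hoxd13 to the start of Hoxd9 spans 29.4 kb. Hoxd4 was at 1.39 to 1.77 RPKM in S5 and 0.80 to 1.38 RPKM in S0 to S4. It shares 52.3% of its exon bases with Hoxd3 and other gene models, so reads of these genes cannot be fully told apart. Hoxd1 was listed at 0 in all 12 libraries.

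The sequences before these starts are shown because the on and off genes stand side by side. Each is the 250 bases upstream of the RefSeq start (GRCm38.p6, chromosome 2, plus strand), with CG dinucleotides in capitals. Such dinucleotides are dense in the CpG islands that Polycomb complexes bind at silent Hox genes.
Hoxd13 (74667975 to 74668224): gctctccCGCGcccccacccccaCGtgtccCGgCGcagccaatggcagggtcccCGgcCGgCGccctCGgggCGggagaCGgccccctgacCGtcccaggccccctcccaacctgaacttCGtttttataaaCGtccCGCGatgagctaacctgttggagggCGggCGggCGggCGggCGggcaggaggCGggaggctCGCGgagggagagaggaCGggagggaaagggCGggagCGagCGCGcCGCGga
Hoxd12 (74674763 to 74675012): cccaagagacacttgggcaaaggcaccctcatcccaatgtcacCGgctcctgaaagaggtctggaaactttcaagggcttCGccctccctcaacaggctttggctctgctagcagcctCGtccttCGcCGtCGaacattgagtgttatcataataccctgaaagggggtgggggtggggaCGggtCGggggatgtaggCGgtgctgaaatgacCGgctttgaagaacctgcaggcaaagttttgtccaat
Hoxd11 (74679308 to 74679557): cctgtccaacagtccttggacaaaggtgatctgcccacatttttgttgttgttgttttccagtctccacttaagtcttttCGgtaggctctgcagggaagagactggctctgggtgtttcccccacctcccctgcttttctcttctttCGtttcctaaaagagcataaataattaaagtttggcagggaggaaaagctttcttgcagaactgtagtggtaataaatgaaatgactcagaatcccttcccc
Hoxd10 (74691641 to 74691890): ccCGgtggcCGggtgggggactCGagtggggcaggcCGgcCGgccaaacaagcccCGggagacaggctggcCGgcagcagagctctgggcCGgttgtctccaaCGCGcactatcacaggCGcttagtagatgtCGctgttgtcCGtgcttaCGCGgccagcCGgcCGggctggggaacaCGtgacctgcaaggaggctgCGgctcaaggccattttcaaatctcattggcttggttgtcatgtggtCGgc
Hoxd9 (74697513 to 74697762): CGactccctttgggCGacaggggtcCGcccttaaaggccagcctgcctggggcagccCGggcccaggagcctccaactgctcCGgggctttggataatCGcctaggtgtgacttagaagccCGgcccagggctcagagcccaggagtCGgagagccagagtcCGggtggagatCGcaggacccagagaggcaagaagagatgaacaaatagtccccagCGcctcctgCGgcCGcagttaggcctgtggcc

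These windows held 31 CG dinucleotides for Hoxd13, 10 for Hoxd12, 2 for Hoxd11, 20 for Hoxd10 and 13 for Hoxd9. The median over 32851 windows of that length in the RefSeq table was 6, and 5.19% of them held 31 or more. RefSeq lists a further start of Hoxd11, whose window (74682073 to 74682322) held 20. Hoxd12, near 0 in all libraries, thus had more than Hoxd11 by the start shown and the fewest of the 5 by the further start. The letters TATAAA, the core of a TATA box, were searched on both strands. They occurred near the middle of the Hoxd13 window, away from the start, where a match on each strand overlapped the other. None of the other 4 shown held them, against 12.4% of all windows and 4 of the 24 Hox windows. Whether they act as a TATA box was not tested. The letters TGATTNAT, a form of the joint site of Hox and Pbx proteins, were in none of the 5 shown, against 2.82% of all windows. The window of the further Hoxd11 start held 1 match, so the result for Hoxd11 depends on the start taken. Of all 24 Hox windows, 2 held these letters. The RefSeq table matched 22 of the 39 Hox genes.

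At the anterior end of Hoxa, Hoxa2, a hindbrain gene, was uneven in S5: 2.60 RPKM in the S5 SPOPwt library, 0.90 RPKM in the S5 SPOPmut library and 0.59 to 1.11 RPKM in the others.

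The middle of Hoxa was on everywhere and differed moderately. Hoxa7 was at 7.12 to 7.95 RPKM in S5 and 3.57 to 5.19 RPKM in S0 to S4, and Hoxa9 at 8.37 to 10.1 against 5.16 to 8.06 RPKM. Hoxa5, known for lung and thyroid development, went the other way at 3.32 to 3.91 against 4.17 to 9.36 RPKM. Counting all clusters, 12 of 39 Hox genes had both S5 libraries above all 10 of the others (30.8%, against 14.3% of all gene names). Of these, 7 were Hoxd genes, among them Hoxd12 near 0, and 5 were Hoxa genes. Another 10 of 39 had both S5 libraries below all 10 of the others (25.6%, against 11.9% of all gene names), of which 6 were Hoxb genes, 3 Hoxa genes and 1, Hoxc6, a gene near 0. The shares over all gene names include 30% listed at 0 in every library, which could meet neither pattern. Among Hox genes that part was 10.3%, so the shares are not fully alike.

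Hoxa10 and Hoxa11, known for the uterus, vas deferens and accessory sex glands, had the highest means of the Hoxa genes over the 12 libraries, although in S5 the SPOPwt library had more Hoxa9 (10.1 RPKM) than Hoxa11 (8.22 RPKM). Hoxa10 was at 14.8 RPKM (SPOPwt) and 16.3 RPKM (SPOPmut) in S5, and at 12.2, 17.4, 15.6, 15.3 and 16.3 RPKM in the SPOPwt libraries of S0 to S4. The SPOPmut libraries of S0 to S4 were at 17.8, 19.1, 17.1, 18.1 and 18.0 RPKM. S5 thus lay within the range of the others. Hoxa11 was at 8.22 and 9.11 RPKM in S5 and at 10.1 to 13.4 RPKM elsewhere. It shares 35% of its exon bases with Hoxa11os on the opposite strand, which was at 7.18 to 7.82 RPKM in S5 and 7.94 to 13.5 RPKM elsewhere. The library kit does not mark strand, so overlapping reads of such a pair cannot be told apart. Hoxa10 lies on chromosome 6 at 52231197 to 52240854, Hoxa11 at 52242106 to 52245810.

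In Hoxb, the gene of highest mean over the 12 libraries was Hoxb9, which patterns the thorax and rib cage; in S3, Hoxb13 stood above it. It was at 11.2 (SPOPwt) and 10.2 RPKM (SPOPmut) in S5 and at 17.7 to 23.3 RPKM in S0 to S4, with a coefficient of variation of 7.87% over those 10 libraries. Hoxb7 did not separate the pairs: 7.15 to 8.71 RPKM in S5 and 6.90 to 9.02 RPKM elsewhere. Hoxb6 was at 4.46 to 5.14 RPKM in S5 and 7.63 to 11.7 RPKM elsewhere, and Hoxb8 at 2.20 to 3.03 against 4.55 to 8.58 RPKM. Hoxb4 differed little, at 1.21 to 1.36 against 1.39 to 1.79 RPKM. Hoxb1 was listed at 0 in 11 libraries and gave about 1.00 read in the S5 SPOPwt library.

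Paralog group 13, the most posterior, had its highest member in Hoxd in S5 and in Hoxb in S0 to S4. Hoxa13 and Hoxb13 were on in all 6 pairs, and in S5 Hoxd13 was on beside them. Hoxb13, a gene of the prostate epithelium and tail end, was at 4.43 (SPOPwt) and 5.04 RPKM (SPOPmut) in S5. In the SPOPwt libraries of S0 to S4 it was at 10.3, 10.9, 11.5, 28.1 and 16.5 RPKM, and in the SPOPmut libraries at 11.9, 12.9, 13.4, 29.9 and 18.5 RPKM. S5 was lowest and S3 highest, and both libraries of a pair lay close together. Over S0 to S4 its coefficient of variation was 43.4%, the largest among the 16 genes on in all pairs. Hoxb13 lies on chromosome 11 at 96194316 to 96197447, 74.0 kb from the start of Hoxb9.

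Hoxa13, which acts with Hoxd13 in limb and genital development, followed the same order in S3 and S5. It was at 1.67 (SPOPwt) and 1.38 RPKM (SPOPmut) in S5, 4.96 and 5.68 RPKM in S3, 3.33 and 3.92 RPKM in S4, and 2.25 to 3.84 RPKM in S0 to S2. Pdgfra, a receptor of mesenchymal cells, was also higher in S3 and S4, at 33.2 to 38.8 RPKM, than in S0 to S2, at 3.64 to 10.5 RPKM; its part in the Hoxb13 and Hoxa13 levels was not tested. Hoxc13, known for hair and nails, was listed at 0 in 11 libraries and gave about 1.00 read in the S5 SPOPmut library. Summed over its 4 genes, group 13 gave 26.5 to 31.4 RPKM in S5 and 12.6 to 35.6 RPKM in S0 to S4.

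**Figure D3:**
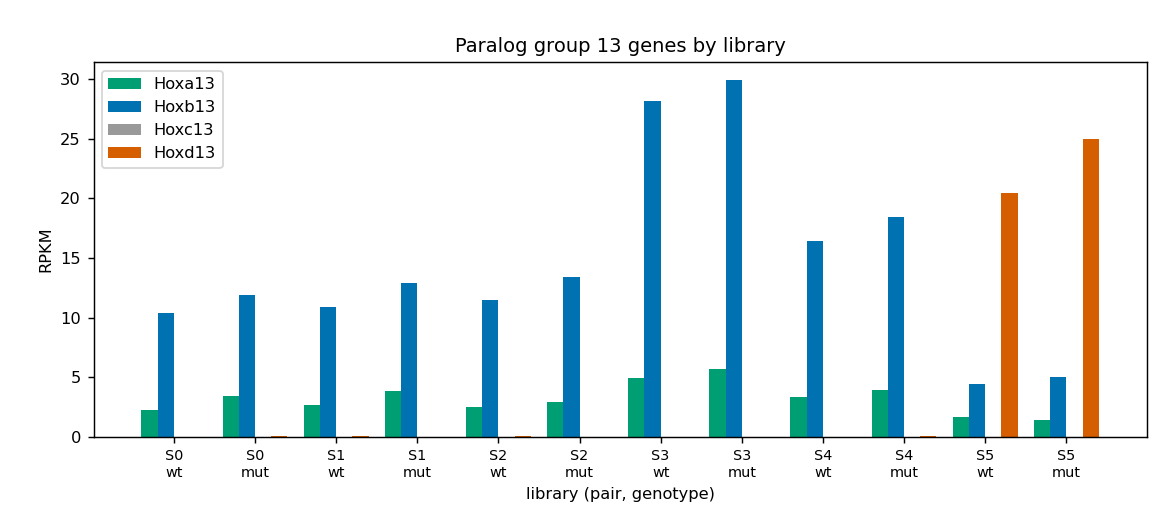
RPKM of the 4 genes of paralog group 13 in each library (bars, from 0; pair and genotype on the x axis). Hoxd13 is the tallest bar in S5 and is invisible elsewhere, whereas Hoxb13 is the tallest in S0 to S4 and reaches 28.1 and 29.9 RPKM in S3.

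Posterior groups dominated in every pair. Genes of groups 9 to 13 made up 61.1 and 64.0% of the summed Hox RPKM in S5 and 54.0 to 61.0% in S0 to S4. Group 9 alone summed to 25.0 to 27.6 RPKM in S5 and 23.7 to 32.9 RPKM elsewhere. Group 12, which in mice has only Hoxc12 and Hoxd12, was at or under 0.012 RPKM in all libraries.

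The Hoxc cluster, which in the mouse body is active along the trunk and hindlimb, gave almost no reads. Hoxc9, Hoxc10 and Hoxc12 were listed at 0 in all 12 libraries. Hoxc6 was the highest member, at 0 to 0.074 RPKM (at most 6.54 approximate reads), and Hoxc5 the next, at 0 to 0.017 RPKM. The other 4 (Hoxc4, Hoxc8, Hoxc11 and Hoxc13) gave about 1.00 read at most. The non-coding RNAs within the cluster were equally low: Hotair, Mir196a-2 and Mir615 stayed under 0.1 RPKM in every library. Beside the cluster, Smug1, a DNA repair gene, was at 7.25 to 7.45 RPKM in S5 and 3.60 to 5.31 RPKM elsewhere.

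Further non-coding RNAs of the clusters, given next, did not keep to the summed level of their cluster. That level overlapped between S5 and the rest for Hoxa and was lower in S5 for Hoxb. The row for the Mir196b hairpin, which lies within a Hoxa9 exon on the same strand, stood at 10.3 (SPOPwt) and 5.76 RPKM (SPOPmut) in S5 and at 0 to 0.83 RPKM elsewhere. That of Mir196a-1, upstream of Hoxb9, was at 14.7 to 17.1 RPKM in S5 and 8.63 to 28.4 RPKM elsewhere. The hairpins of Mir196b and Mir196a-1 span 85 and 102 bases, so 1 RPKM there rests on far fewer reads than for a transcript of 2 kb. Both give mature miRNAs of 1 family, known to act on Hox transcripts such as Hoxb8, and their sequences show that they share a seed (bases 2 to 8, in capitals, from RefSeq).
mmu-miR-196a-5p: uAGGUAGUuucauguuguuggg
mmu-miR-196b-5p: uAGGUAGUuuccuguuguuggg
They differ by A12C, counted from the 5′ end. These libraries do not capture mature miRNAs, and hairpin reads cannot be told from those of longer transcripts over the same bases. Halr1, a long non-coding RNA beside the Hoxa cluster, was at 0.10 to 0.22 RPKM in S5 and 0.91 to 2.91 RPKM elsewhere.

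The Pbx, Meis and Pknox cofactors that bind DNA with Hox proteins, listed with the related Tgif genes, also differed between S5 and the rest. Of the 11 Pbx, Meis, Pknox and Tgif genes, 2 had both S5 libraries above all others and 6 below, against 14.3% and 11.9% of all gene names. These shares again include names listed at 0 in every library. Pknox2 was at 0.0043 to 0.0070 RPKM in S5 and 4.49 to 6.24 RPKM elsewhere. Meis1 was at 0.55 to 0.70 against 2.66 to 6.81 RPKM, and Meis3 at 0.40 to 0.85 against 2.34 to 7.08 RPKM. Tgif1, a repressor related to the Meis family, was higher in S5 (43.9 to 45.6 RPKM) than elsewhere (10.2 to 30.0 RPKM).

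Between genotypes, no Hox gene passed the test. Within pairs, limma compared SPOPmut with SPOPwt on the log2(RPKM + 1) scale, for genes at 1 RPKM or more in at least 6 of 12 libraries. Of the 39 Hox genes, 19 passed that filter, and 0 of them had an adjusted p under 0.05 (0 of 13600 genes tested, 0%). At an unadjusted p under 0.05, 3 Hox genes were higher and 0 lower, against 3.82% higher and 1.77% lower over all genes tested. The same 3 were the only tested Hox genes with 1 direction in all 6 pairs: Hoxb13, Hoxa10 and Hoxa11 had a higher value in SPOPmut each time, as did 3.62% of all genes tested. None was lower in all 6 pairs, against 1.68% of all genes. The mean difference was above 0 for 15 of the 19 and below 0 for 4, where 50.2% of all genes tested had a higher mean. With each library rescaled to an equal RPKM sum, the split was 17 and 2.

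Hoxb13 had the smallest p of the family. It averaged 15.3 ± 8.36 RPKM over the SPOPmut libraries and 13.6 ± 8.07 RPKM over the SPOPwt libraries (SD, n = 6 each), groups that overlap because the pairs differ far more than the genotypes. Within pairs its log2 difference ran from 0.085 in S3 to 0.22 in S1, with a mean of 0.17 (SE 0.055, 95% confidence interval 0.044 to 0.30; limma adjusted p = 0.881). Hoxa10 averaged 17.7 ± 0.98 RPKM with the mutant and 15.3 ± 1.75 RPKM without, 0.21 higher on the log2 scale (SE 0.072; adjusted p = 0.881 in limma). Its difference was 0.51 in S0 and 0.12 to 0.24 in the other pairs. Hoxa11 was at 11.9 ± 1.51 and 10.3 ± 1.19 RPKM, a difference of 0.18 (SE 0.064, limma adjusted p = 0.881), from 0.062 in S1 to 0.32 in S0. With RPKM rescaled to an equal sum the S1 difference of Hoxa11 was -0.0094, so its direction then held in 5 of 6 pairs.

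The 2 lower genes of smallest p were Hoxb7, with a difference of -0.057 (SE 0.068), and Hoxb4, with -0.017 (SE 0.064). Each was lower in 4 of 6 pairs. Hoxb7 stood at 7.80 ± 0.69 RPKM in SPOPmut and 8.15 ± 0.63 in SPOPwt, and Hoxb4 at 1.56 ± 0.18 and 1.59 ± 0.21 RPKM. Among the other tested genes, Hoxa13 was higher by 0.20 (SE 0.090) in 5 of 6 pairs and lower in S5, and Hoxd9 by 0.22 (SE 0.11) in 5 of 6 pairs and lower in S2. Hoxb9 and Hoxb5 were each higher in 3 pairs and lower in 3.

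**Figure D4:**
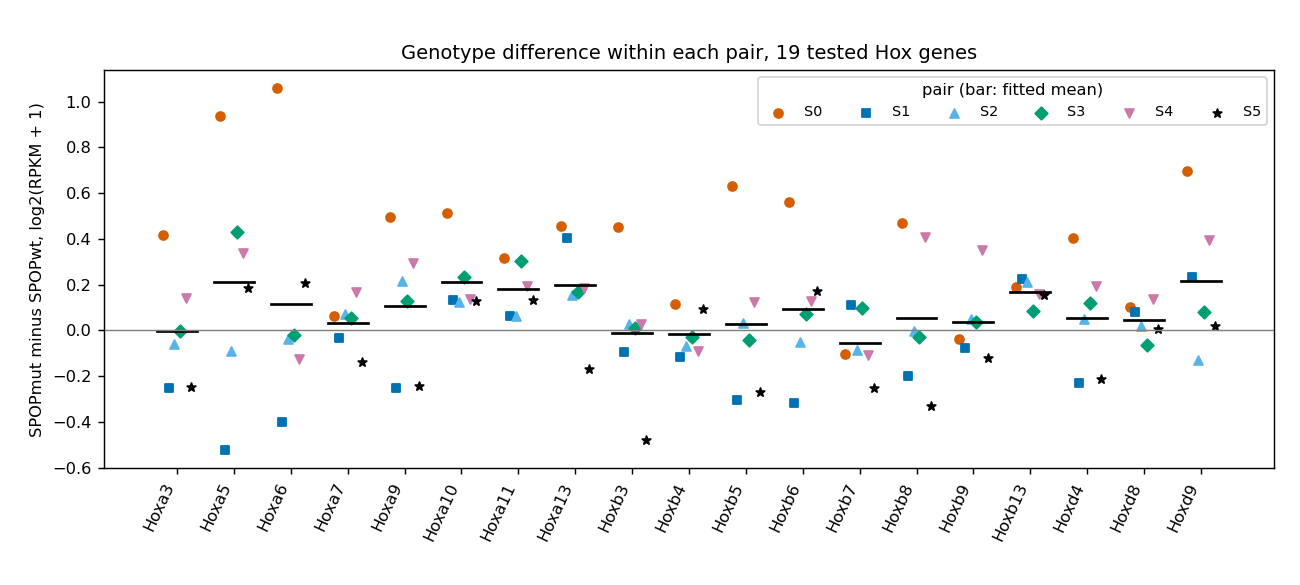
SPOPmut minus SPOPwt on the log2(RPKM + 1) scale for the 19 tested Hox genes, 1 point per pair, with the fitted mean as a black bar. Only Hoxa10, Hoxa11 and Hoxb13 have all 6 points above 0, and pair S0 gives the highest point for most genes.

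Pair S0 had the highest median difference of the family. The median difference over the 19 tested Hox genes was 0.45 in S0, -0.094 in S1, 0.029 in S2, 0.073 in S3, 0.16 in S4 and -0.12 in S5, where the medians over all genes tested lay between -0.030 and 0.049. Over all 6 pairs the median of the Hox genes was 0.054, against 0.00055 over all genes tested, and without S0 it was 0.025. S0 was also the pair whose libraries deviated together least from their group means (correlation across genes of 0.060, against 0.75 to 0.95 in the others). In S0, Hoxa5 was at 4.41 RPKM in SPOPwt and 9.36 in SPOPmut, and Hoxa6 at 3.63 and 8.63 RPKM. The epithelial markers moved in S0 as well: all 7 were higher in SPOPmut, and their sum was 113 RPKM against 22.7 RPKM in SPOPwt. This was not particular to S0. All 7 were also higher in S4 (18.6 against 9.46 RPKM), and 6 of 7 in S5 (3924 against 2930 RPKM). In S1, S2 and S3, 3, 5 and 5 of the 7 were higher. Of the 6 mesenchymal markers 4 were higher in S0, with sums of 792 and 917 RPKM. The part of these markers in the S0 difference was not tested. Hoxa5 and Hoxa6 were both lower in SPOPmut in S1, by -0.52 and -0.40 on the log2 scale.

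The 7 tested genes of groups 9 to 13 all had a mean difference above 0, with a median of 0.18, and without S0 the median was 0.15. The 12 tested genes of groups 1 to 8 had a median of 0.039 (8 higher and 4 lower), and -0.037 without S0. The difference between the 2 sets of groups was not tested. Hoxd10, Hoxd11 and Hoxd13 fell below the filter: in S5, Hoxd13 was higher in SPOPmut (25.0 against 20.4 RPKM) and Hoxd10 and Hoxd11 lower (4.40 against 5.94, and 2.42 against 3.62 RPKM), each from 1 pair.

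Related genes gave no calls either. Of the 11 Pbx, Meis, Pknox and Tgif genes, 10 were tested and 0 passed in either direction. Their median difference was 0.084, against 0.00055 over all genes tested. Without S0 these medians were 0.042 and 0.011. Pknox1 had the smallest p, with a difference of 0.12 (limma adjusted p = 0.887), and Tgif1, the most abundant, differed by 0.050. Of 20 cluster non-coding RNAs, 9 were tested and 0 passed, with a median of 0.075 that fell to 0.00074 without S0. Mir196a-1, the highest of them in RPKM on a hairpin of 102 bases, had the smallest p, with a difference of 0.19 (limma adjusted p = 0.887). Of the genes flanking the clusters, 12 of 18 were tested and 0 passed, with a median of 0.022, or 0.039 without S0. Among them Jazf1 had the smallest p, with a difference of 0.14 (limma adjusted p = 0.887), and Hnrnpa1, the most abundant, differed by 0.027.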

How the data were processed

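Each library had 1 deposited file of RPKM per gene name, made by the authors with gene length and depth divided out. Per the submitters' processing notes, the aligner STAR (2.4.0j) was used, with mm10 and GRCm38 as builds. The sources used here do not give the annotation, how reads were counted or any scaling between libraries. Members and lists were chosen with earlier results of these data known. Computing used R 4.3.3 with limma 3.58.1 and Python 3.11.15 with pandas 2.3.3 and matplotlib 3.10.9.

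The scale for tests was log2(RPKM + 1), which understates changes of low genes. limma fitted pair and genotype over 13600 genes at 1 RPKM or more in at least 6 of 12 libraries, with a trended, robust prior, two-sided p-values and Benjamini-Hochberg adjustment, called under 0.05. The fit was tested on simulated data. Pairing came from the protocol, which speaks of pairs, and from the shared numbers in the titles. Libraries of the same number deviated together in S1 to S5 (0.75 to 0.95) but hardly in S0 (0.060). In S0 and in S1, however, the SPOPmut library correlated most with the SPOPwt library of S2. The shared number thus did not always name the closest control.

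Depth was estimated from the value of 1 read, using GENCODE exon lengths (91.2% of names found), at 28270000 to 40980000 per library. Of values up to 20 reads, 24.2 to 27.0% were whole within 0.04, so no count test was run and reads are approximate. For Hoxd11, Hoxd12 and Hoxd13 all such low values were whole. No libraries were merged as duplicates: the lowest median chi-square between libraries of a group was 1.19 (S1 and S2 SPOPwt), against 0.455 from sampling alone. The next lowest were 2.09 (S1 and S2 SPOPmut) and 7.91 (S0 and S2 SPOPwt). Pairs S1 and S2 were thus the most alike in both groups, and they were counted as separate pairs.

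Values by library were given for the 2 highest genes of each cluster, group 13, genes on in S5 only or off in S5 only, genes of smallest p in each direction, and genes with 1 direction in all pairs; some items are not reported here, and the other members named were picked after their values were seen. Coordinates are from GENCODE on GRCm38 and sequences from RefSeq on GRCm38.p6. Alternatives were another pseudocount, 2 filters, 2 scalings, no block for pair, another prior, each pair left out, and other thresholds for a gene being on.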

Additional observations from a re-analysis of the deposited data

Results flagged for a closer look

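Levels of the named Hox genes were compared within each group of 6 libraries by Dixon's ratio, the gap of the farthest library divided by the range, on the log2(RPKM + 1) scale. Ratios above the 95% critical value for 6 samples are given. Hoxd10, Hoxd11 and Hoxd13 were named for being on in S5 alone, so their ratios follow from that choice and are a description. For Hoxd13 the ratio was 0.975 in SPOPmut and 0.986 in SPOPwt, for Hoxd11 0.986 and 0.988, and for Hoxd10 0.952 and 0.971, with S5 high. Among the other genes, where chance passes about 1 group in 20, S5 was high for Hoxd8 in SPOPwt (0.660). It was low for Hoxb9 in SPOPmut (0.871), for Hoxa11 in SPOPmut (0.634) and for Hoxb4 in SPOPwt (0.635). Of 8 genotype differences, that of Hoxa10 stood apart in S0 (0.712, difference 0.51) and that of Hoxb9 in S4 (0.645, difference 0.35).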

How the results depend on the processing

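The count of Hox genes called between genotypes was 0 under all 14 alternatives, as it was over all genes. Each pair held 1 library of each genotype, so leaving out the block for pair could not change a difference (Hoxb13 0.17 in both fits). Only standard errors and p-values could change, and no call changed. For the 8 tested named genes, refits that changed only the filter, the prior or the block could not alter a difference, so their direction was fixed. Counting these refits, the direction was kept in 109 of 112, at adjusted p-values of 0.429 to 1. The exceptions were Hoxb9 without S4 (-0.029), Hoxb7 without S0 and S5 together (0.0041) and Hoxb4 without S1 (0.0035); the cause was not tested. With each pair left out in turn, Hoxb13 ran from 0.16 to 0.19, Hoxa10 from 0.15 to 0.23, Hoxa11 from 0.15 to 0.20, Hoxb9 from -0.029 to 0.065 and Hoxb4 from -0.043 to 0.0035. Without S0, 11 tested Hox genes had a higher and 8 a lower mean in SPOPmut, against 15 and 4. Without S0 and S5 together, 2 Hox genes, Hoxa6 and Hoxb4, were lower in all 4 remaining pairs, where 0 were in all 6; fewer pairs make this easier to meet. At a threshold of 2 RPKM, 1 gene, Hoxa13, was on in every pair of S0 to S4 and under the threshold in S5, where 0 were at 1 RPKM. At 0.5 RPKM, 25 Hox genes were on in S5, at 2 RPKM 16, and the genes on in S5 only were 3 at either. Leaving S0 out of S0 to S4, chosen after seeing the data, left the counts at 23, 16, 4 and 0. Approximate reads limit statements on genes near 0: a value of 0.01 RPKM was about 1.00 read.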

Other observations

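Regulators of the Hox clusters were measured in the same libraries. Polycomb proteins keep Hox genes silent, and all 26 genes of the list were tested between genotypes; 0 passed in either direction in limma, with a median difference of 0.050. Pcgf1, a subunit of a variant Polycomb complex, had the smallest p, with a difference of 0.22 (SE 0.089, limma adjusted p = 0.886) and a higher value in SPOPmut in 5 of 6 pairs. Rbbp7, the most abundant member, differed by -0.067. Ezh2, the methyltransferase of the complex, was at 4.02 to 5.49 RPKM in S5 and 3.26 to 14.3 RPKM in S0 to S4, and Phf19 at 0.0059 to 0.043 RPKM in S5 and 0.66 to 5.42 RPKM in S0 to S4. Of 16 Trithorax and demethylase genes, which counteract silencing, 0 passed, with a median of 0.0063, which was -0.020 without S0. Dpy30, both the most abundant and the one of smallest p, differed by -0.13 (limma adjusted p = 0.887).

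Among upstream signals of axial patterning, Cdx1, Cdx4, T, Fgf8 and Wnt3a stayed under 0.1 RPKM in all 12 libraries. Cdx2, a caudal gene that acts on Hox clusters, was listed at 0 in both S5 libraries and at 0.15 to 0.93 RPKM in S0 to S4. Gdf11, a ligand that sets the trunk to tail transition, was at 0.56 to 0.58 RPKM in S5 and 2.74 to 7.52 RPKM in S0 to S4, and Wnt5a at 3.78 to 3.84 against 13.9 to 28.9 RPKM. Cyp26b1, which breaks down retinoic acid, was at 1.73 to 2.63 RPKM in S5 and 0.07 to 0.90 RPKM elsewhere. Of the 5 genes of this list tested between genotypes, 0 passed: Wnt5a, of smallest p, and Rarg, a retinoic acid receptor and the most abundant, each differed by 0.15 (limma adjusted p = 0.887).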
